A study of Mus musculus with 96 samples.

Results

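Peritoneal metastases of the mouse liver tumour lineage HBS1_F2 were compared with primary liver tumours driven by HBS1_F2 or by HBS1. The samples were picked out by their labels, with earlier results of these data known. They make up 7 of the 96 libraries of the study, each a whole-transcriptome count of 1 dissected tumour. 3 libraries are HBS1_F2-driven metastatic tumours taken from the peritoneum. 4 libraries are primary tumours from the liver and were pooled as 1 group, of which 2 are HBS1_F2-driven and 2 are HBS1-driven. The study as a whole set normal liver, liver organoids and tumours of mice side by side. HBS1 and HBS1_F2 are also the names of tumour organoids of the study, which are clumps of cells grown in 3D culture, and the labels do not expand either name. No strain, age or allele is given for the 7 tumours, treatment is entered as none for all of them, and the labels do not say how the tumours were raised from the lines, whether libraries come from separate animals or whether a metastasis and a primary tumour shared a host. P-values therefore measure the spread between these libraries only, and HBS1 and HBS1_F2 are each 1 named line.

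The peritoneum is the thin lining of the abdominal cavity, and tumours that spread there grow on its surface outside the liver. Tumours at such a site meet other resident cells and another blood supply than in the liver. Replication-dependent histone genes supply the proteins that package newly made DNA, lie in clusters and are transcribed mainly in S phase, and their mRNAs end without a poly(A) tail. The labels describe a total stranded RNA protocol.

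The 7 libraries held between 16194989 and 55723344 counts assigned to genes, with 18727 to 21463 of 34591 gene symbols detected. Levels are given in CPM, a gene's count scaled to a common library total by TMM, which evens out differences in library composition. All 7 libraries had Xist, the RNA of the inactive X chromosome, at 406 CPM or more, and Ddx3y, a Y-linked gene, had no count in any of them. HBS1 primary 1 carries an identifier number from another block (44) than the other 6 libraries (48), so that block cannot be told apart from this library.

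Metastasis 3 stood apart from the other 6 libraries. Over 11541 genes, the standard deviation (SD) of the log2 difference between metastases 1 and 2 was 0.49, while metastasis 3 differed from metastasis 1 by 1.22 and from metastasis 2 by 1.19. Its closest primary tumour was HBS1_F2 primary 2 at 1.09, whereas metastases 1 and 2 lay at 0.596 to 0.664 from the HBS1_F2 primaries. In metastasis 3, 384 genes were over 4-fold above the median of the other libraries and above all of them, and 324 were likewise below, against 9 to 126 above and 20 to 36 below in each of the other 6, with the 126 in HBS1 primary 1. The deposited file of metastasis 3 carries in its name the code used for the primary tumours, while its label and tissue entry say metastatic tumour and peritoneum. The label was followed, and results that rest on this library are given with and without it.

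**Figure D1:**
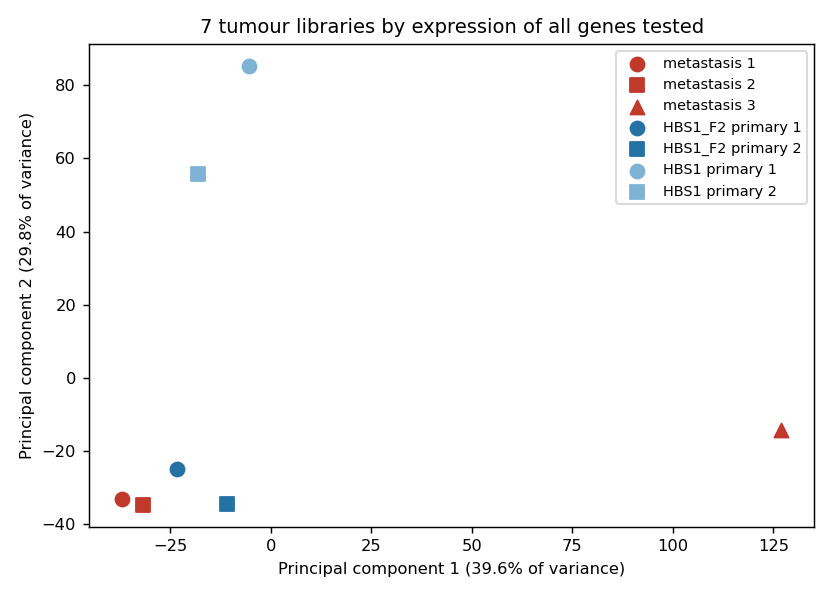
Principal components 1 (horizontal, 39.6% of variance) and 2 (vertical, 29.8%) of log2 CPM over 15799 genes, 1 point per library. Metastasis 3 lies at 127 on the first component, where the other 6 libraries lie between -37.1 and -5.54, and the HBS1 primaries lie at 85.3 and 55.8 on the second.

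The first question was which genes differed between the 3 metastases and the 4 primaries. edgeR's quasi-likelihood test called 0 of 15799 genes at an adjusted p under 0.05 (0%), with 1271 genes at an unadjusted p under 0.05 and a smallest adjusted p of 0.544. limma-voom also called 0 genes. DESeq2 called 120 genes higher (0.76%) and 45 lower (0.285%). As a description that does not rest on a model, 760 genes had all 3 metastases above all 4 primaries (4.81%) and 657 had all 3 below (4.16%). The genes named for this comparison therefore did not pass the main test, and their folds are fitted log2 values ± standard error (SE) of metastases minus primaries.

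Clustered histone genes led the genes higher in the metastases. Genes with predicted, clone, ribosomal-repeat or pseudogene names were left out of the ranking by p. Among the other genes with a mean of 10 CPM or more in the metastases, 14 of the 15 with the smallest p in the higher direction were histone genes. The remaining 1 was Atp2a3, a calcium pump of the endoplasmic reticulum. Of the 12 replication-dependent histones that were listed, 9 had all metastases above all primaries, where 4.81% of all genes did. None had all below, where 4.16% of all genes did. The median log2 fold of the 12 was 1.67, against -0.00 over all genes tested. Of all 65 clustered histone genes that were tested, a set put together after the values were seen, 54 had all metastases above all primaries. All 65 had a positive fold, against 7885 of the 15799 genes tested. DESeq2 called 45 of the 65 higher, where it called 0.76% of all genes higher. The summed level of the 70 clustered histone genes was 1321, 2488 and 2571 CPM in metastases 1, 2 and 3, and 946 and 814 CPM in the HBS1_F2 primaries and 511 and 909 CPM in the HBS1 primaries.

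Core histones of all 4 types had members among these genes. Hist1h2bk, a histone H2B gene, stood at 13.5, 31.9 and 30 CPM in metastases 1, 2 and 3 and at 8.4, 7.18, 3.73 and 5.86 CPM in HBS1_F2 primaries 1 and 2 and HBS1 primaries 1 and 2. Every metastasis lay above every primary, with an edgeR adjusted p of 0.547 and a DESeq2 adjusted p of 0.00106. Hist1h2bq, another H2B gene, read 14.2, 21.6 and 13.8 CPM in the metastases and 3.77 to 6.12 CPM in the primaries, a fold of 1.65 ± 0.26 (edgeR adjusted p = 0.544). Hist1h3h, a histone H3 gene, had 11.3, 22.6 and 24.2 CPM in the metastases and 1.89 to 5.89 CPM in the primaries. Hist1h4j, a histone H4 gene, had 11.8, 20.7 and 28.3 CPM against 2.89 to 6.43 CPM. Hist1h2ao, a histone H2A gene, had 7.7, 12.4 and 10 CPM against 1.25 to 2.76 CPM. The linker histone gene Hist1h1b had 10.9, 26.5 and 21.2 CPM against 1.79 to 5.62 CPM, the largest fitted fold among the 15 at 2.45 ± 0.47. Hist1h1c, a linker histone gene and the most abundant of the 12, overlapped between groups, with 127 to 193 CPM in the metastases and 69.3 to 131 CPM in the primaries. Within each type, 12 of 12 tested H3, 15 of 18 H2A, 14 of 17 H2B, 10 of 13 H4 and 3 of 5 H1 genes had all metastases above all primaries. The share over all genes was 4.81%. Many of these genes are nearly identical copies that can share reads, so values of single members are uncertain.

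The upstream sequences of 3 H2B genes that lay above all primaries are shown because these genes had the same direction in the metastases. Each runs from 250 bases before to 50 bases after the annotated start, from RefSeq on build GRCm38.p6, and capitals mark the octamer ATTTGCAT, the letters CCAAT and the letters TATAAA on either strand. Hist1h2bk lies at chr13:22035571-22035870 on the plus strand, Hist1h2be at chr13:23621045-23621344 on the minus strand and Hist1h2bq at chr13:21810150-21810449 on the minus strand.
Hist1h2bk: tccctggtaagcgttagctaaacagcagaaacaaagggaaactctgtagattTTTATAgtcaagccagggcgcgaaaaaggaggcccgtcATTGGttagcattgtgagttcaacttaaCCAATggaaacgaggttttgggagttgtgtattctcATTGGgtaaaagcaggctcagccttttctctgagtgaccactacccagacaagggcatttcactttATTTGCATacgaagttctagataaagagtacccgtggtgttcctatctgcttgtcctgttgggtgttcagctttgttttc
Hist1h2be: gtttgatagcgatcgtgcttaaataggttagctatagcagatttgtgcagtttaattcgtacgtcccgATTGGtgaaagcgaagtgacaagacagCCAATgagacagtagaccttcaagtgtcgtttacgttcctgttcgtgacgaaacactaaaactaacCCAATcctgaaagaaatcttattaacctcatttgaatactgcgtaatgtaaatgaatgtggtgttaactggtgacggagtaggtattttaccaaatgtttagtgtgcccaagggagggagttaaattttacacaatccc
Hist1h2bq: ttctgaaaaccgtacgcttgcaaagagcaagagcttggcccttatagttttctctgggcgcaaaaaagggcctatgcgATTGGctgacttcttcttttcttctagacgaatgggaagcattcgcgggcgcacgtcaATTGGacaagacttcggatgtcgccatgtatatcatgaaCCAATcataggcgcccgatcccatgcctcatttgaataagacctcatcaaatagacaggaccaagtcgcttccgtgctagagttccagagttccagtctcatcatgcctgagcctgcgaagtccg
The octamer is present in the window of Hist1h2bk and not in those of Hist1h2be and Hist1h2bq, while all 3 windows hold CCAAT. An upstream window was found for 56 of the 65 histone genes. CCAAT was present in 47 of the 56, against 37.4% of 32851 mouse promoter windows, but in only 3 of the 12 windows of H4 genes, while every matched window of the other types held it. The octamer was present in 11 of the 56, which were 6 H2A and 5 H2B genes, against 1.74% of all windows. TATAAA was present in 31 of the 56, against 13.6% of all windows. Many H2A and H2B genes lie head to head and share 1 upstream region, so their windows are not independent.

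Cell-cycle genes had the same direction as the histones. Of 24 proliferation genes, 12 had all metastases above all primaries, as 4.81% of all genes did, and 0 had all below, with a median log2 fold of 1.35. The list also differed in level between the pooled controls, with a median of 0.95 for HBS1_F2 minus HBS1 primaries, and its median against the HBS1_F2 primaries alone was 0.96. Mki67, a marker of cycling cells, read 88.4, 215 and 150 CPM in metastases 1, 2 and 3, 84.2 and 81.8 CPM in the HBS1_F2 primaries and 29.6 and 48.8 CPM in the HBS1 primaries, a fold of 1.31 ± 0.43. Metastasis 1 lay barely above the HBS1_F2 primaries. Top2a, a topoisomerase of dividing cells, had 46.2, 93.5 and 154 CPM in the metastases and 20.5 to 38.3 CPM in the primaries. Cdk1, the kinase that drives entry into mitosis, had 19.6, 43.6 and 55.4 CPM against 6.11 to 18.4 CPM. The DNA replication helicase subunits overlapped between groups: Mcm5 read 30.7, 68.9 and 34.2 CPM in the metastases and 41 CPM in HBS1_F2 primary 1. How far cell division and the histone levels depend on each other was not tested. Without metastasis 3 the median was 1.33 for the histones and 1.30 for proliferation, so neither median rests on that library. The proliferation genes summed to 618, 1300 and 1002 CPM in metastases 1, 2 and 3. In the HBS1_F2 primaries they summed to 625 and 471 CPM, and in the HBS1 primaries to 247 and 322 CPM. By this sum metastasis 1 was not above HBS1_F2 primary 1.

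**Figure D2:**
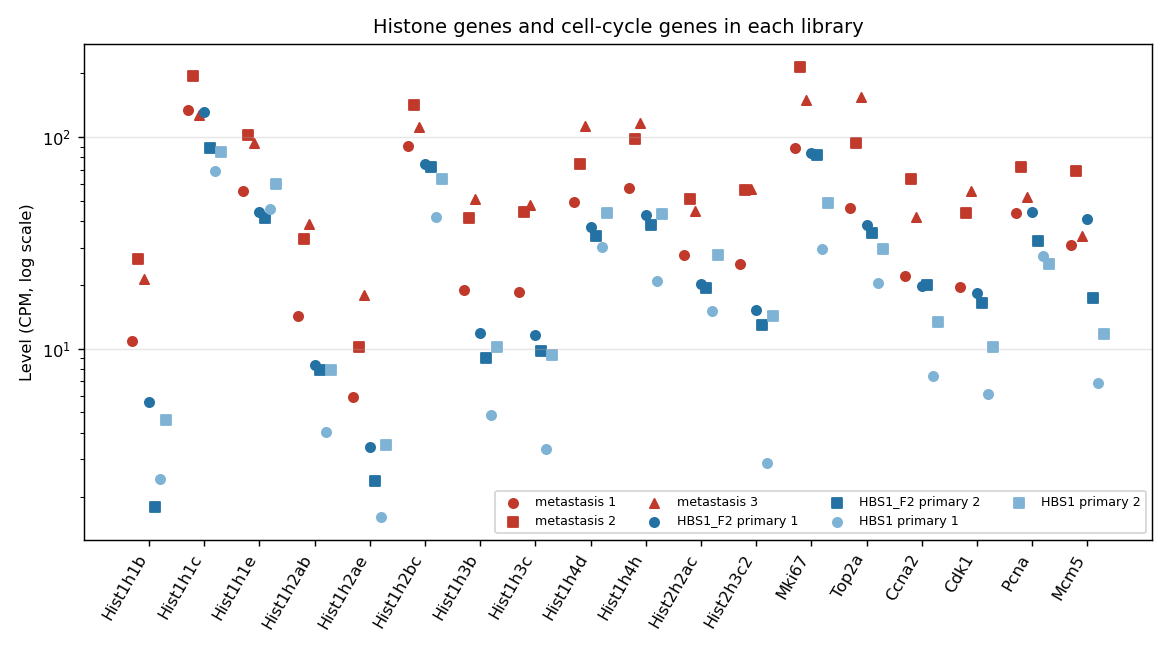
Levels in CPM (vertical, log scale) of the 12 listed histone genes and 6 cell-cycle genes (horizontal) in each of the 7 libraries, 1 point per library. For Hist1h3b the metastases read 18.9, 41.2 and 51.1 CPM and the primaries 4.84 to 11.9 CPM, while for Mcm5 the groups overlap.

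The genes lower in the metastases were ranked with the same names left out and a mean of 10 CPM or more in the primaries. The 15 with the smallest p were of several kinds and included transporters, channels and signalling genes. Slc4a4, a sodium bicarbonate transporter, had 137, 110 and 128 CPM in the metastases and 243, 256, 275 and 236 CPM in the primaries. Its groups did not overlap and the spread within each was small, with a fold of -1.01 ± 0.16 (edgeR adjusted p = 0.544) and an adjusted p of 4.50e-07 by DESeq2. Epb4.1l4a, a member of the band 4.1 family of membrane-skeleton proteins, had 2.13, 3.13 and 3.59 CPM against 15.1, 8.93, 11.8 and 11 CPM, a fold of -1.99 ± 0.29. St3gal1, a sialyltransferase that caps O-linked sugars, had 47.6, 47.3 and 42.1 CPM against 129 and 131 CPM in the HBS1_F2 primaries and 84.5 and 89 CPM in the HBS1 primaries. Kcnj8 and Abcc9, which encode the pore and the regulatory subunit of 1 ATP-sensitive potassium channel, were both below all primaries. Kcnj8 read 6.93 to 14.2 CPM in the metastases against 22.8 to 36.6 CPM, and Abcc9 read 25.5 to 33.3 CPM against 47.9 to 113 CPM. Flt1, a VEGF receptor of endothelial cells, had 22.7 to 30.7 CPM against 39.1 to 93.2 CPM.

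The same 15 genes held Cxcl1, a chemokine that attracts neutrophils, and Il1rn, the antagonist of the interleukin 1 receptor. Cxcl1 had 26.1, 39.4 and 34.4 CPM in the metastases and 57.3, 66.1, 70.1 and 60.4 CPM in the primaries, a fold of -0.93 ± 0.19. Il1rn had 15, 19 and 35.3 CPM against 62.8, 55.6, 64.1 and 60.8 CPM, a fold of -1.40 ± 0.30. Il17rb, a receptor chain for interleukin 25, had 9.07 to 10.9 CPM against 16.2 to 21.5 CPM, and Socs2, a feedback inhibitor of cytokine signalling, had 12.4 to 21.8 CPM against 28.1 to 42 CPM. All 4 genes had every metastasis below every primary and none passed edgeR's test. Among 23 listed chemokine genes, 20 were tested, of which 2 had all metastases below and 1 had all above, near the shares over all genes of 4.16% and 4.81%. Of 14 tested genes of a list of cytokines and inflammation, 1 had all metastases below and 0 had all above, and the median log2 fold was 0.13. The remaining genes of the lower 15 were Trp53i11, Raph1, Ppp2r3a, Atg4c and Cadps2, with folds between -2.93 and -0.76.

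Metastases 1 and 2 shared high levels of granulocyte genes that metastasis 3 lacked. Of 10 neutrophil genes, 9 were tested, and 7 of those 9 had metastases 1 and 2 above all primaries, where 11.5% of all genes did (1823 genes) and 11.9% had both below (1873 genes). No neutrophil gene had all 3 metastases above. The summed level of the list was 699 and 605 CPM in metastases 1 and 2, 28.5 CPM in metastasis 3, 154 and 147 CPM in the HBS1_F2 primaries and 66.9 and 69.7 CPM in the HBS1 primaries. In bulk tumours, more cells of a type and more RNA per cell cannot be told apart.

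S100a8, a calcium-binding protein of neutrophils, had 205 and 168 CPM in metastases 1 and 2, 7.24 CPM in metastasis 3 and 40.9, 42.7, 17.7 and 15.7 CPM in the primaries. Its fold was 2.12 ± 0.90 with all libraries and 2.68 without metastasis 3, where the edgeR adjusted p was 0.193. Several genes of neutrophil granule proteins, which are made while the cells mature in the bone marrow, were near 0 in the primaries. Mmp8, the neutrophil collagenase, had 17.5, 12 and 1.7 CPM in metastases 1, 2 and 3 against 1.45 to 3.46 CPM, a fold of 2.10 ± 0.70. Ngp, neutrophilic granule protein, had 103, 78.1 and 0.378 CPM in metastases 1, 2 and 3 and 0.472 to 4.07 CPM in the primaries. Camp, the antimicrobial peptide cathelicidin, had 37.9, 29.9 and 0.126 CPM against 0.164 to 1.61 CPM. Ltf, lactoferrin, had 101, 70.8 and 2.71 CPM against 0.964 to 5.34 CPM, a fold of 4.28 ± 1.12. Elane, neutrophil elastase, had 5.88, 10.1 and 0.189 CPM against at most 0.403 CPM. Csf3r, the receptor for the growth factor G-CSF on neutrophils, overlapped between groups, with 20.2 and 28.9 CPM in metastases 1 and 2 against 13 to 23.9 CPM in the primaries. Chi3l3, a chitinase-like protein of myeloid cells, had 63.5, 58.4 and 1.13 CPM against 3.27 to 7.37 CPM. Ighm, the immunoglobulin M heavy chain, had 12.2, 14.9 and 0.252 CPM against 0.902 to 2.11 CPM. These genes were chosen after metastasis 3 had been seen to stand apart.

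Genes of the oxygen response formed the opposite pattern. Of 18 hypoxia and glycolysis genes, 8 had metastases 1 and 2 below all primaries, as 11.9% of all genes did. 0 had them above, where 11.5% of all genes did. The median log2 fold of the list was 0.54 with metastasis 3 and -0.84 without it. The list also differed in level between the pooled controls, with a median of 1.03 for HBS1_F2 minus HBS1 primaries. The summed level was 1601 and 1834 CPM in metastases 1 and 2, 8083 CPM in metastasis 3, 2995 and 4189 CPM in the HBS1_F2 primaries and 1803 and 1894 CPM in the HBS1 primaries. Bnip3, a mitochondrial protein induced in low oxygen, had 43 and 38.1 CPM in metastases 1 and 2, 342 CPM in metastasis 3 and 180, 280, 146 and 168 CPM in the primaries. Egln1, an oxygen sensor that marks hypoxia-inducible factor for decay, had 17.2, 15.7 and 139 CPM in metastases 1, 2 and 3 and 53 to 65.3 CPM in the primaries. Ndrg1, a stress-response gene, had 42.8, 35.4 and 776 CPM against 71.9 to 322 CPM. Adm, the vessel-dilating peptide adrenomedullin, had 1.2, 0.555 and 243 CPM against 3.97 to 30.8 CPM. Vegfa, the main angiogenic growth factor, had 54.6, 43.6 and 445 CPM against 69.9 to 254 CPM. For each of these 5 genes metastases 1 and 2 lay below all 4 primaries and metastasis 3 lay above all 4. Bnip3 and Egln1 are among the genes ranked by p without metastasis 3, and Adm is among those furthest above the other libraries in it. Part of this pattern is therefore how Bnip3, Egln1 and Adm were found.

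With metastasis 3 left out and only the 2 HBS1_F2 primaries as controls, a fit chosen after the data were seen, edgeR called 7 genes. Ltf, Chi3l3, Cd177 and S100a8 were higher, the last 3 at log2 folds of 3.13 ± 0.16, 3.30 ± 0.24 and 2.16 ± 0.16, and Ak4, P4ha2 and Egln1 were lower, at -4.20 ± 0.31, -2.55 ± 0.17 and -1.97 ± 0.14. The adjusted p of the 7 genes was 0.0422 or 0.0456. Cd177 is a neutrophil surface protein, Ak4 a mitochondrial adenylate kinase and P4ha2 a collagen prolyl hydroxylase. Without metastasis 3 but with all 4 primaries, 0 of 16339 genes were called by edgeR (smallest adjusted p 0.0908), 1627 had an unadjusted p under 0.05, and DESeq2 called 119 higher and 151 lower.

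**Figure D3:**
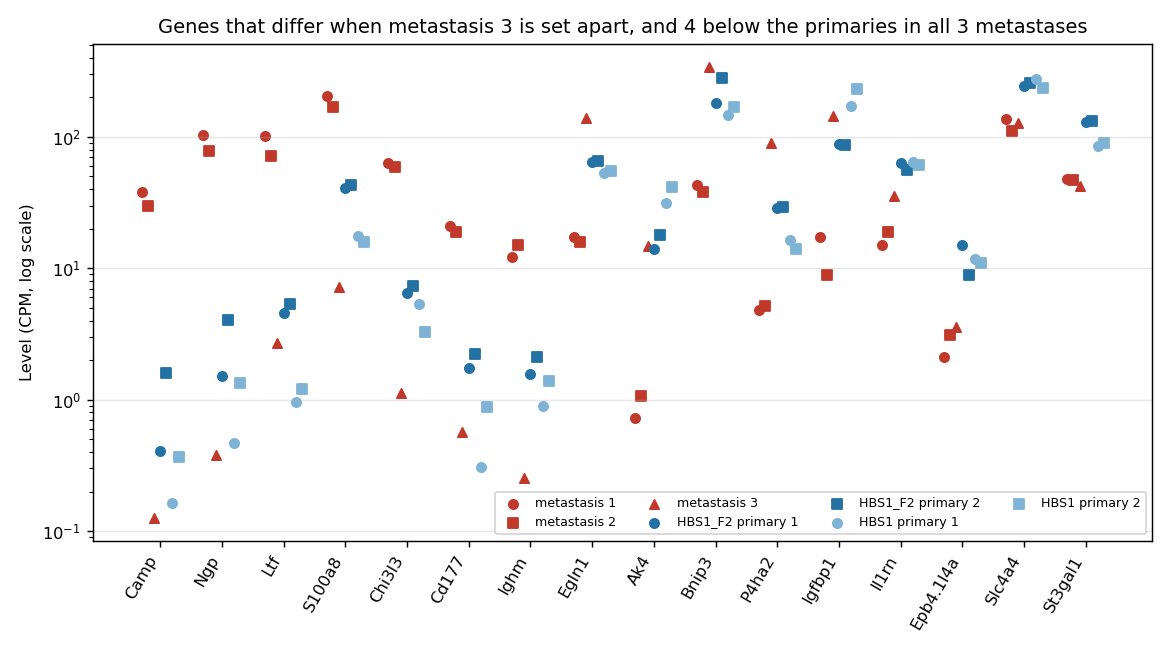
Levels in CPM (vertical, log scale) of 16 genes (horizontal) in each of the 7 libraries. From Camp to Ighm, metastases 1 and 2 lie above the primaries and metastasis 3 does not; from Egln1 to Igfbp1 they lie below the primaries and metastasis 3 does not; Il1rn, Epb4.1l4a, Slc4a4 and St3gal1 are below the primaries in all 3.

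Cholesterol synthesis genes were high in metastases 1 and 2 and low in metastasis 3. Of 21 such genes, 15 had metastases 1 and 2 above all primaries, as 11.5% of all genes did, and 0 had all 3 above, and the median log2 fold was 0.42 with metastasis 3 and 0.80 without it. Their summed level was 3243 and 2955 CPM in metastases 1 and 2, 702 CPM in metastasis 3, 1786 and 2260 CPM in the HBS1_F2 primaries and 990 and 2641 CPM in the HBS1 primaries. Hmgcs1, an early enzyme of the pathway, had 285 and 240 CPM in metastases 1 and 2, 31 CPM in metastasis 3 and 116, 182, 48.2 and 123 CPM in the primaries. Fatty acid synthesis genes did not share this, since 3 of 15 had metastases 1 and 2 above all primaries and the list summed to 11068, 7758 and 2974 CPM in the metastases and 3334 to 8504 CPM in the primaries. Scd1, which makes monounsaturated fatty acids, had 6472, 4121 and 405 CPM in metastases 1, 2 and 3 and 5099, 3383, 1461 and 3015 CPM in the primaries.

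Hepatocyte genes were low in metastasis 3 as well. The 22 hepatocyte genes summed to 39487 CPM in metastasis 2, the lower of metastases 1 and 2, to 12443 CPM in metastasis 3 and to 40572 to 77926 CPM in the primaries. Alb, serum albumin, had 3567, 3842 and 1325 CPM in the metastases, 4705 and 5069 CPM in the HBS1_F2 primaries and 14133 and 31815 CPM in the HBS1 primaries, a fold of -2.26 ± 0.81. For Alb, every metastasis lay below every primary. Rgn, a liver calcium-binding protein, had 502 and 494 CPM in metastases 1 and 2, 7.18 CPM in metastasis 3 and 60.8 to 301 CPM in the primaries. Gpc3, a fetal liver proteoglycan, had 37.1, 91.4 and 1.89 CPM against 40.7 to 64.6 CPM. Rgn and Gpc3 are not among the 22 hepatocyte genes. They are among the genes furthest below the other libraries in metastasis 3, so their low level in it is how they were found. Igf2, the fetal growth factor, had 4320, 6347 and 1078 CPM against 1285 to 5396 CPM. H19, the RNA from the neighbouring imprinted gene, ran from 228 CPM in metastasis 3 to 4386 CPM in metastasis 2, and from 1173 to 3223 CPM in the primaries.

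Some genes high in metastasis 3 were also high in cultured HBS1_F2 organoids. Cacna1h, a calcium channel subunit, had 132 CPM in metastasis 3, at most 6.72 CPM in the other 6 tumours and a median of 229 CPM over 4 HBS1_F2 organoid libraries (21.4 to 358 CPM). Ttyh1, a chloride channel, had 131 CPM in metastasis 3 and at most 2.55 CPM in the other 6, with an organoid median of 177 CPM (0.19 to 207 CPM). Ptgs2, the inducible cyclooxygenase, had 88.5 CPM in metastasis 3, at most 2.5 CPM in the other 6 and an organoid median of 66 CPM (12.5 to 837 CPM). Other genes high in metastasis 3 were low in these organoids. Adm had an organoid median of 4.76 CPM. Ptgds and Spdef had organoid medians of 3.99 and 1.46 CPM, against 52.4 and 30.5 CPM in metastasis 3. These genes are among the 20 with the largest ratio of metastasis 3 to the other libraries, so their high level in it is how they were found. Over the 11541 genes, the median SD of log2 differences from the HBS1_F2 organoids was 1.54 for metastasis 3 and 1.90 to 2.05 for the other 6. Metastasis 3 was also the closest of the 7 to the HBS1 organoids, at 2.33 against 2.61 to 2.72, and to the LCS peritoneal metastases, at 1.77 against 1.81 to 2.04.

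**Figure D4:**
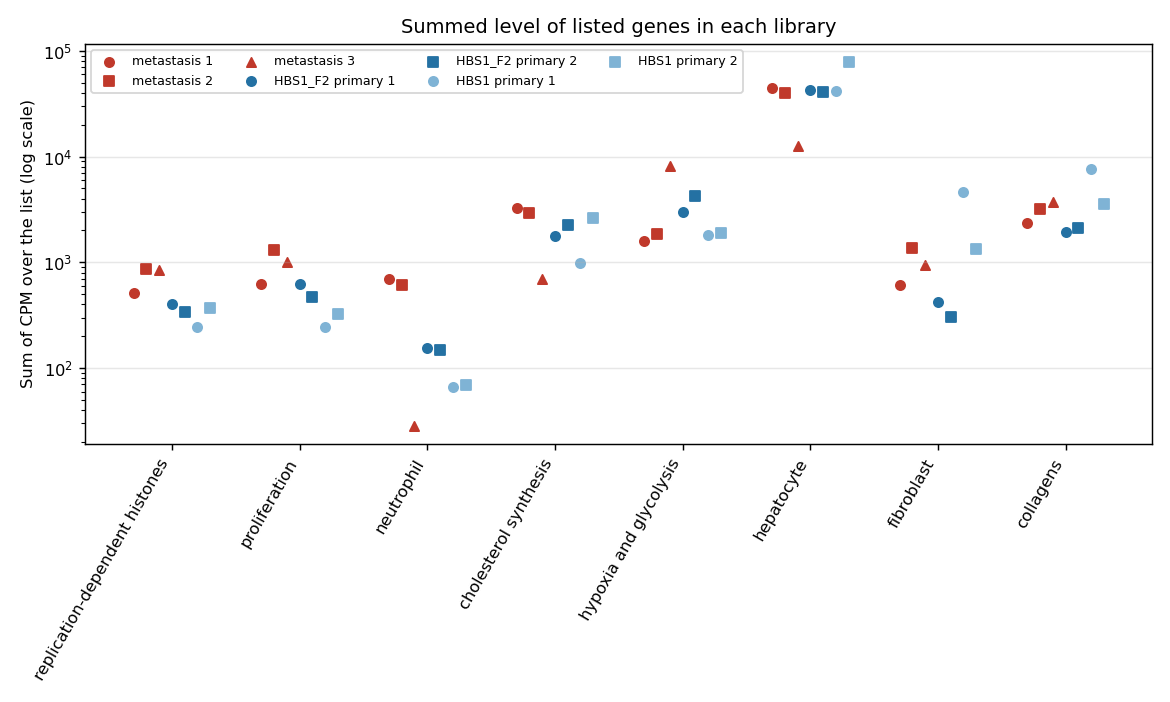
Summed CPM (vertical, log scale) over 8 gene lists (horizontal) in each library, 1 point per library. Metastasis 3 sits with the other metastases for the histones, at 837 CPM against 508 and 870 CPM, and apart from them for neutrophil, cholesterol, hypoxia and hepatocyte genes.

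Markers of tissues that a peritoneal tumour could hold differed in level from list to list. The 9 mesothelial genes, which mark the lining of the peritoneum, summed to 12, 11.5 and 3.65 CPM in the metastases and 2.61 to 10.9 CPM in the primaries, and Msln, a surface protein of mesothelium, read 1.74, 1.31 and 0 CPM in the metastases. Upk3b and Lrrn4, 2 other mesothelial genes, had all metastases above all primaries at levels of at most 2.16 CPM. Of the 11 pancreatic acinar genes, Cela1, an elastase, made up nearly all of the sum, with 248, 110 and 101 CPM in the metastases and 95, 170, 16.3 and 31.1 CPM in the primaries, while none of the others passed 2.42 CPM in any library. The 7 pancreatic islet genes summed to at most 0.328 CPM in any library. Skeletal muscle genes summed to 6.71 to 31.7 CPM in the metastases and 3.88 to 11.8 CPM in the primaries, and adipocyte genes to 268, 386 and 59.1 CPM against 124 to 318 CPM. Gastric epithelium genes summed to 121, 104 and 137 CPM in the metastases against 64 to 97.7 CPM in the primaries. Ovary and uterus genes, with Ltf among them, summed to 134, 112 and 71 CPM against 60.4 to 67.4 CPM. For both sums every metastasis lay above every primary, though 0 of the 4 tested members of either list did so. The part of neighbouring tissue in the results above was not tested.

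Genes looked at whatever their values mostly overlapped between metastases and primaries, with Xist and Alb, whose levels are given above, as exceptions. Prom1, a surface marker of liver progenitors, had 43.7, 46.6 and 84.6 CPM in the metastases and 41.6 to 51.2 CPM in the primaries, a fold of 0.35 ± 0.25. Notch1, a receptor of the Notch pathway, had 160, 119 and 258 CPM against 65.6 to 158 CPM, and Trp53, the p53 tumour suppressor, had 14.1, 14.7 and 27.6 CPM against 10.9 to 16.1 CPM. Krt8, a keratin of simple epithelia, had 903, 930 and 3157 CPM against 506 to 2331 CPM. Of the 14 listed biliary markers, Krt19 and Epcam were low. Epcam was at most 1.27 CPM in any library, and Krt19 was at 17.1 CPM in metastasis 3 and at most 4.46 CPM elsewhere. The list as a whole was not low, with sums of 11741 to 22122 CPM in the tumours against 223 to 436 CPM in normal liver. Most of that sum was Spp1, at 11301 to 21587 CPM in the tumours. Xist read 460, 406 and 446 CPM in the metastases and 806, 706, 889 and 623 CPM in the primaries, with every metastasis below every primary, a fold of -0.79 ± 0.20 (edgeR adjusted p = 0.548).

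The pooled primaries were themselves of 2 kinds. In the same 7 libraries, edgeR called 0 of 16362 genes between HBS1_F2 and HBS1 primaries (0%; 1969 at an unadjusted p under 0.05), and DESeq2 called 603 (3.69%). Without metastasis 3, whose spread enters the fit, edgeR called 105 genes higher (0.643%) and 207 lower (1.27%) in the HBS1_F2 primaries. Against the HBS1_F2 primaries alone, the 3 metastases differed in 0 of 16362 genes by edgeR (0%; 798 at an unadjusted p under 0.05) and in 83 by DESeq2 (0.507%). Without metastasis 3, 12 genes were called there, 4 higher and 8 lower.

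Some genes that separated the primaries had metastases near the HBS1_F2 primaries, whose lineage name they share, and others did not. Fut2, which makes a blood-group sugar of mucosal surfaces, had 11.3 and 40.3 CPM in the HBS1_F2 primaries, 15.7 to 38.2 CPM in the metastases and 0.267 and 0.169 CPM in the HBS1 primaries. Folr1, a folate receptor, had 10.3 and 19.6 CPM, 8.21 to 17.2 CPM and 0.8 and 0.648 CPM in the same order. Slpi, a protease inhibitor of mucosal secretions, had 103 and 72.6 CPM, 61.4 to 86.1 CPM and 11.8 and 17.5 CPM. Muc13, a membrane mucin, had 241 and 367 CPM in the HBS1_F2 primaries and 50.8 and 48.8 CPM in the HBS1 primaries, and metastasis 3, at 54.6 CPM, was at the level of the latter. In the other direction, Krt20, a keratin of gut epithelium, had 1.74 and 0.902 CPM in the HBS1_F2 primaries, 1.86 to 3.18 CPM in the metastases and 44.3 and 49.4 CPM in the HBS1 primaries. Ugt1a9 and Cyp3a11, enzymes of drug metabolism, followed it, with Cyp3a11 at 5.51 and 3.46 CPM, 7.87 to 11.8 CPM and 37.7 and 39.8 CPM. In the fit without metastasis 3, 0.643% of all genes were called higher in the HBS1_F2 primaries and 1.27% were called lower. Called higher were 3 of 7 tested mucin and trefoil genes (Muc1, Muc5b and Muc13) and 3 of 18 hypoxia and glycolysis genes (Hk2, Pfkfb3 and Egln3). Called lower were 3 of 16 fibroblast genes (Col6a1, Lum and Fbln1), 3 of 18 basement membrane genes and 3 of 16 matrix glycoprotein genes. Other lists had fewer calls or none. Fbln1, a matrix protein, had 0.058 and 0.0576 CPM in the HBS1_F2 primaries, 4 and 2.62 CPM in the HBS1 primaries and 1.38, 2.27 and 3.78 CPM in the metastases, nearer the HBS1 primaries. Col6a1, a collagen chain, had 10.3 and 12.9 CPM, 107 and 41.2 CPM, and 28.7, 41.8 and 97.2 CPM in the same order.

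Stromal genes also differed in level between the kinds of primary. The 16 fibroblast genes summed to 420 and 305 CPM in the HBS1_F2 primaries, 4668 and 1324 CPM in the HBS1 primaries and 611, 1373 and 952 CPM in the metastases, with a median log2 fold of -2.58 for HBS1_F2 minus HBS1 primaries. Col3a1, a fibrillar collagen, had 93.5 and 55.2 CPM, 1548 and 426 CPM, and 190, 500 and 42.3 CPM in the same order. The fold of metastases against all 4 primaries for such genes, -1.12 ± 1.23 for Col3a1, averages over these unlike controls.

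**Figure D5:**
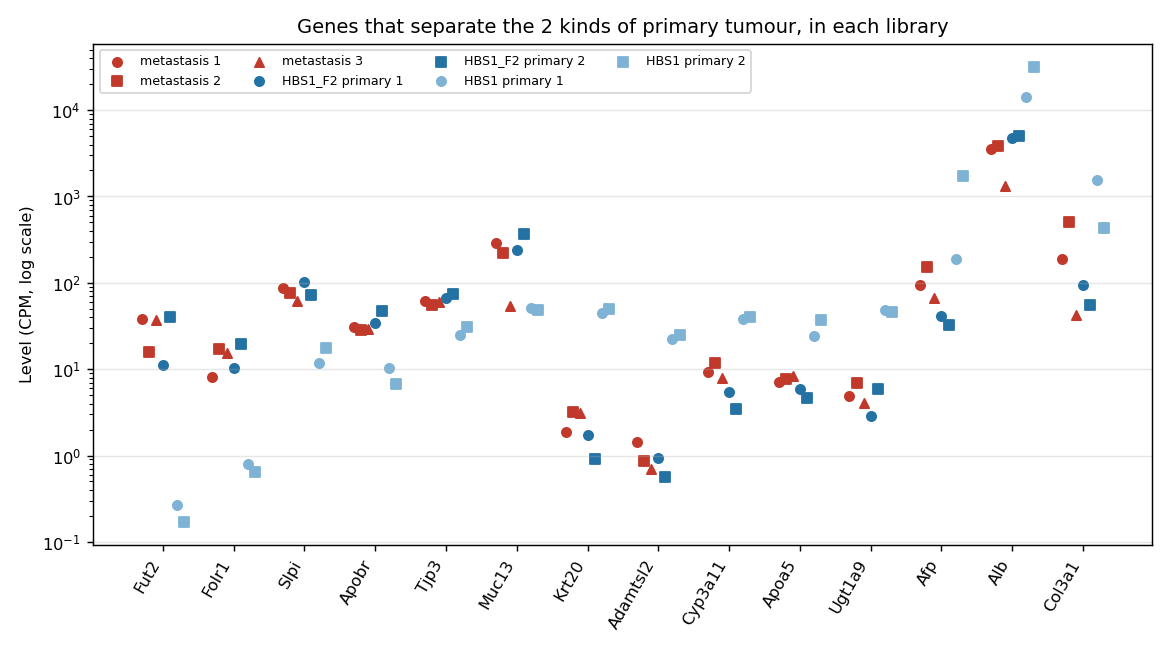
Levels in CPM (vertical, log scale) of 14 genes (horizontal) in each library; the metastases and HBS1_F2 primaries share a lineage name. For Krt20 and Adamtsl2 the 2 HBS1 primaries lie above the other 5 libraries, and for Fut2 and Folr1 they lie below.

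The last comparison asked whether the difference at the peritoneum was the same in another organoid-driven lineage, LCS, with 3 peritoneal metastases and 10 primary tumours. 1 of those 3 metastases had only 4393199 counts with 34.9% of them in ribosomal repeats. All 3 carry identifier block 44, while 7 of the 10 LCS primaries carry block 16. The study holds several LCS organoid lines, and the labels do not say which of them gave these tumours. LCS metastases and LCS primaries may therefore come from different lines. edgeR called 0 of 18251 genes for the difference between lineages (0%; 2124 at an unadjusted p under 0.05), and DESeq2 called 455 (2.49%). Leaving out LCS primary 8 gave 123 genes by edgeR. Of the 65 clustered histone genes, all with positive folds in the 7 libraries, 63 had a negative fold in LCS and 2 a positive one (Hist2h2be and Hist3h2a). By edgeR, none of them was called in LCS or for the difference between lineages. Hist1h2bk had a fold of -0.89 ± 0.44 in LCS, and -0.65 ± 0.58 within block 44, and the lineages differed by 2.87 ± 0.66 (edgeR adjusted p = 0.0915). Hist1h3h differed by 3.23 ± 0.68 (edgeR adjusted p = 0.0832), and its LCS fold was -0.93 in all libraries and -0.40 ± 0.58 within block 44. Mki67 had a fold of -0.30 ± 0.35 in LCS. S100a8 and S100a9, which together form calprotectin in neutrophils, rose in LCS metastases, by 3.30 ± 0.75 and 2.96 ± 0.68 (edgeR adjusted p = 0.0439 and 0.0452), while within block 44, with 3 metastases and 3 primaries, the folds were 2.50 ± 1.22 and 2.44 ± 1.09 and edgeR called 0 of 17067 genes. S100a8 levels overlapped between the LCS groups, at 77.4, 82.5 and 976 CPM in the metastases and 12 to 123 CPM in the primaries. For S100a8 the HBS1_F2 lineage minus LCS was -1.15 ± 1.28 (edgeR adjusted p = 0.767). Slc4a4 and St3gal1 had LCS folds of -0.30 ± 0.28 and -0.26 ± 0.41, which did not pass the test, and the fold of Slc4a4 was 0.16 ± 0.33 within block 44.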

How the data were processed

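RNA of 7 dissected mouse tumours was compared, and 13 LCS tumours served the comparison between lineages. The submitters' processing notes name build mm9 and the tools HTSeq, STAR and BWA, without versions or settings. The deposited files hold raw counts per gene symbol, which the authors did not normalise. 5 further entries, reads given to no gene, made up 26.3% to 33.6% of entries and were left out. The members, gene lists and naming rule were chosen with earlier results of these data known.

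Genes were kept by filterByExpr (minimum count 10, minimum total 15), scaled by TMM and tested with the quasi-likelihood F-test of edgeR 4.0.16 in R 4.3.3. Benjamini-Hochberg adjustment ran over all genes tested, and a call needed an adjusted p under 0.05. The SE is the fold divided by the square root of F. Named genes are the 15 each way with the largest called change and a mean of 10 CPM or more, filled by smallest p where none was called, the most abundant member of each of 67 lists, 5 each way between the kinds of primary, and fixed genes. Predicted, clone, ribosomal-repeat and pseudogene names were left out of the ranked genes. Of 887 listed symbols, 884 matched. Other genes were chosen after their values were seen. DESeq2 1.42.0 and limma 3.58.1 were alternatives. All 3 tools were tested on simulated counts of the 7 libraries.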

Additional observations from a re-analysis of the deposited data

Results flagged for a closer look

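Among 113 named genes, 5 had 1 of the 4 pooled primaries far from the other 3, by Dixon's test on the gap to the nearest value, which flags about 1 in 20 groups by chance. Afp, a fetal liver protein, stood at 1711 CPM in HBS1 primary 2 and at 32.7 to 189 CPM in the other primaries. Hnf4a, a hepatocyte transcription factor, was also highest there, at 358 CPM against 225 to 241 CPM. HBS1 primary 1, the library from the other identifier block, was highest for Col4a1, a basement membrane collagen, at 981 CPM against 501 to 571 CPM, and for Tgfbr1, a TGF-beta receptor, at 259 CPM against 150 to 158 CPM. Junb, an immediate early gene, was highest in HBS1_F2 primary 2, at 142 CPM against 50.8 to 61.6 CPM.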

How the results depend on the processing

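Metastases against primaries gave 0 calls each way by edgeR with RLE size factors, no filter on low counts, limma-voom, HBS1_F2 primaries only, 3 groups, the ribosomal-repeat share as a covariate, and without each library in turn (0 to 0). DESeq2 gave 120 higher and 45 lower, DESeq2 without metastasis 3 gave 119 and 151, and HBS1_F2 primaries without metastasis 3 gave 4 and 3. Metastases against HBS1_F2 primaries gave 83 by DESeq2, and 0 to 12 with 1 library left out, 12 being without metastasis 3. HBS1_F2 against HBS1 primaries gave 603 by DESeq2, 20 with no filter, and 0 to 312 with 1 library left out, 312 being without metastasis 3. The difference between lineages gave 455 by DESeq2 and 0 to 123 with 1 library left out, 123 being without LCS primary 8. The cause of these gaps was not tested. Genes with all metastases above and below all primaries numbered 1260 and 298 with library totals alone, and 1823 and 1873 with metastases 1 and 2 only. The 54 histone genes above all primaries were 56 with RLE and 59 with library totals. Of 112 named genes with a fold, 33 were called by DESeq2 and 17 changed sign without metastasis 3. In LCS, the calls of S100a8 and S100a9 were lost within identifier block 44. No paired analysis was possible because the labels give no replicate numbers that tie a metastasis to a primary tumour.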
